A study of Mus musculus with 6 samples.

Results

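The glutathione, NRF2 target and antioxidant enzyme genes were a set of 39 named genes, matched by symbol among the 54146 genes of the count tables for mouse kidney. The rule that names them uses no measured value, although the set was drawn up with earlier results of these data known. All 39 were found once and had enough counts to be tested. Whole-kidney messenger RNA was sequenced in 6 libraries from B6C3F1/J mice on postnatal day 84 (12 weeks). Every library carries the label of floxed Tfam alleles. The 3 libraries labelled Tfam f/f are described as controls without Cre. The 3 libraries labelled KspCre Tfam f/f also carry the Ksp-Cre transgene, which is driven by the kidney-specific cadherin promoter in tubule epithelium, so cells outside the tubule keep the floxed alleles. They are called f/f-labelled and KspCre-labelled libraries below. Whether each library is its own animal is not stated, and a p-value here describes the scatter among libraries, part of which may be technical.

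Tfam itself, whose product packages and transcribes mitochondrial DNA, went against the labels. It stood at 30.3, 33.6 and 23.2 CPM (counts scaled to a common library size) in the f/f-labelled libraries and at 63.1, 63.4 and 61.3 in the KspCre-labelled ones (2.15-fold higher in the latter, edgeR adjusted p = 0.00107). Mitochondrially encoded mRNAs made up 2.39% to 5.67% of counts in the f/f-labelled libraries and 10.98% to 11.1% in the KspCre-labelled ones. Each direction below is therefore between labels and not between known genotypes, and "higher" or "lower" without a group means in the KspCre-labelled libraries relative to the f/f-labelled ones. Depth was 19024208 to 34821537 gene counts in the f/f-labelled libraries and 30348281 to 48899266 in the others. Marker lists of kidney cells moved with the labels, where 21.3% of all tested genes were called higher and 24.9% lower. The summed level of 16 proximal tubule markers was 5580 to 23524 CPM in the f/f-labelled libraries and 63904 to 67754 CPM in the KspCre-labelled ones, with 13 of 16 higher. Kap made up 951 to 4387 CPM and 25970 to 26733 CPM of these sums. The sum of 5 tubular injury markers was 478 to 2245 CPM against 28.7 to 31.4 CPM, with 5 of 5 lower. The sum of 9 macrophage markers was 171 to 525 CPM against 130 to 143 CPM, with 8 of 9 lower, and no macrophage marker was at 0 in any library. Csf1r, the marker that was not called, made up 48.3 to 86.1 CPM and 77.9 to 81.3 CPM of these sums. Other lists moved as well. Summed markers of the thick ascending limb were 2.86-fold higher (4 of 6 called), of the distal and connecting tubule 2.96-fold (4 of 5), of intercalated cells 3.16-fold (6 of 6), of podocytes 1.6-fold (3 of 5), of endothelium 1.29-fold (1 of 5) and of red blood cells 3.29-fold (4 of 5). Those of principal cells were 1.3-fold lower (4 of 6), of fibroblasts 1.67-fold (2 of 5) and of neutrophils 4.64-fold (2 of 2 tested). Ly6g, which was not tested, had 0, 0 and 4 counts in the f/f-labelled libraries and 0 in each KspCre-labelled one. Lymphocyte markers had 4 tested, and their sum was 3.89 to 5.83 CPM against 3.6 to 3.71 CPM. The part of these differences in the values below was not tested.

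NRF2, encoded by Nfe2l2, is a transcription factor that KEAP1 holds in the cytoplasm and hands over for degradation. When oxidants or electrophiles modify KEAP1, NRF2 escapes, pairs with a small MAF protein and binds antioxidant response elements in genes for quinone reduction, haem breakdown, glutathione synthesis and conjugation. Glutathione and thioredoxin are the reducing systems that feed peroxidases, and the proximal tubule is known for its high turnover of glutathione and for secreting the plasma glutathione peroxidase.

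Stretches of promoter are shown for 6 genes because they carry the core of the antioxidant response element on both sides of the comparison. The first 3 genes below, Nfe2l2, Srxn1 and Txnrd1, had lower mRNA and the last 3, Gclm, Prdx1 and Sod1, had higher mRNA. Each sequence reads 5′ to 3′ along the gene's own strand, and capitals mark the core as TGACNNNGC or TGAGNNNGC, or as its reverse complement where the element lies on the other strand.
Nfe2l2: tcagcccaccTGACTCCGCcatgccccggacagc
Srxn1: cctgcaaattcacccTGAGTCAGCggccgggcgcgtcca
Txnrd1: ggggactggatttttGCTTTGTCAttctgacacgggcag
Gclm: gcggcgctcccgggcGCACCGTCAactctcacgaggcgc
Prdx1: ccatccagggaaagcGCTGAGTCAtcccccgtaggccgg
Sod1: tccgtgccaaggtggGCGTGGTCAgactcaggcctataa
The stretches lie at chr2:75704880-75704913 (minus strand), chr2:152105464-152105502 (plus), chr10:82859099-82859137 (plus), chr3:122245408-122245446 (plus), chr4:116685451-116685489 (plus) and chr16:90220691-90220729 (plus) of GRCm38.p6, upstream of a RefSeq start site.

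Either core form was found on either strand of the promoter, from 250 bases before to 50 bases after a start site, in 13 of the 32 members with a RefSeq promoter, against 30.8% of the 27025 genes in the promoter table. Among lower members it was in 5 of 9 (Nfe2l2, Srxn1, Txnrd1, Mgst1 and Gstp1). Among higher members it was in 4 of 9 (Gclm, Prdx1, Sod1 and Ggt1), and among those that did not pass it was in 4 of 14. The TGAC form was in 10 of 32 members (14.0% of all promoters) and the TGAG form in 7 of 32 (19.8%). The AP-1 motif TGACTCA, which overlaps the element in Srxn1, Prdx1 and Gstp1, was in 4 of 32 (5.95%). These matches describe letters in the window. Lower and higher members both held the core, and the numbers are too small to compare.

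Of the 39 members, 21 passed the test of the labels (edgeR quasi-likelihood, Benjamini-Hochberg adjusted p below 0.05 over 17308 genes). Across all tested genes 46.2% passed, with 21.3% higher and 24.9% lower. Among the members 10 were higher and 11 lower, and the directions went by role group. These groups, like the members, were set with earlier results of these data known. In this fit, the 4 genes grouped as NRF2 target enzymes and the glutathione transferases were lower wherever they passed. Genes of glutathione synthesis and breakdown, peroxiredoxins, superoxide dismutases and glutathione peroxidases were higher wherever they passed. NRF2 also binds genes of glutathione synthesis and conjugation, so the group named for its targets does not hold all of them. Gclm, a gene of glutathione synthesis placed in another group, was higher. The direction of the group named for NRF2 targets thus depends on which genes were placed in it. The groups of libraries did not overlap for 30 of 39 members (61.9% of all genes). A fold of at least 2 was reached by 5 higher members (8.75% of all genes) and 7 lower members (13.2%). The median log2 fold change was 0.21 over the members and -0.028 over all genes. Under scaling by total count alone, which shifts the median of all genes by -0.43, 8 members were higher and 16 lower. Of all 17308 genes, 1680 were higher and 8512 lower under that scaling. Prdx1 and Sod1 no longer passed there, and Keap1, Prdx2, Gsta3, Gstt1 and Mgst3 passed as lower. The count of higher members was 6 without KspCre-labelled replicate 2 or 3, where 2276 of 17754 and 2299 of 18088 tested genes were higher. The count of lower members was 7 without f/f-labelled replicate 1 or KspCre-labelled replicate 3, and 6 without KspCre-labelled replicate 1 or 2. In the order named, those fits called 3577, 2873, 2914 and 2822 genes lower, of 17745 to 18088 tested. In whole-kidney RNA, fewer cells of a type and less RNA per cell cannot be told apart.

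**Figure D1:**
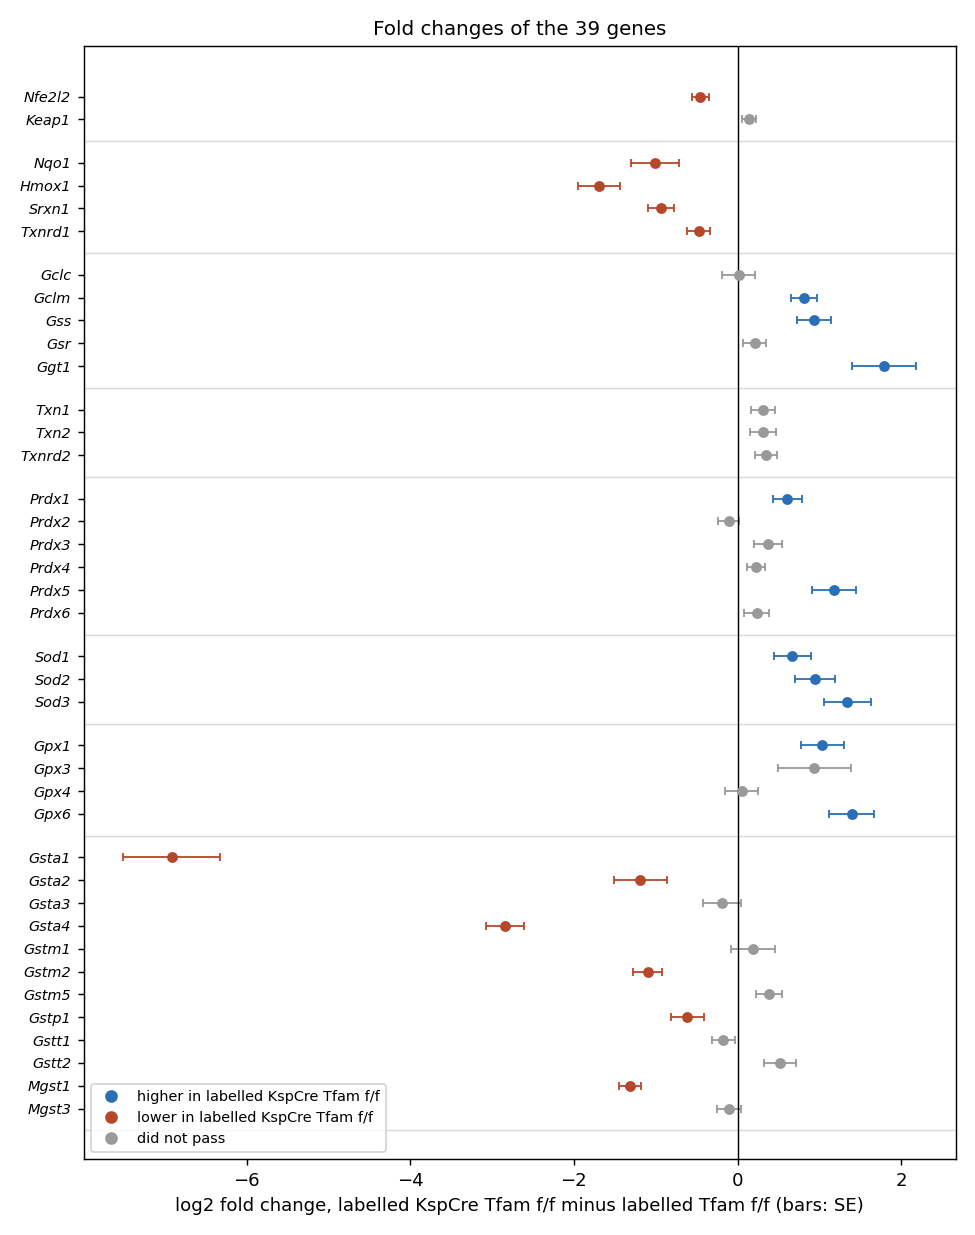
Log2 fold change of each of the 39 members, KspCre-labelled minus f/f-labelled libraries with TMM scaling, with its standard error as a bar and grouped by role. The 10 higher members lie in the synthesis, peroxiredoxin, dismutase and peroxidase groups, and the 11 lower members among the NRF2 regulator, NRF2 target and transferase genes.

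The transcript for NRF2 itself was lower and that of its inhibitor did not pass. Nfe2l2 (chr2:75675513-75704641) stood at 160.2, 153 and 169.7 CPM in the f/f-labelled libraries and at 116, 116 and 122 CPM in the KspCre-labelled libraries. All KspCre-labelled libraries were below all f/f-labelled ones, which gave a 1.37-fold lower level (log2 fold change -0.45, SE 0.10, edgeR adjusted p = 0.00894). This call was lost without KspCre-labelled replicate 1 (adjusted p = 0.055) or replicate 2 (adjusted p = 0.0567). Keap1, the NRF2 inhibitor, stood at 46.0, 42.0 and 41.2 CPM against 47.1, 49.2 and 46.3 CPM. The groups did not overlap but lay close together, and the log2 fold change of 0.14 (SE 0.08, edgeR adjusted p = 0.2) turned to -0.28 under scaling by total count alone. About 10.9% of the exonic length of Keap1 overlaps a gene on the other strand, and the strand setting of the counting is not given in the sources used here.

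All 4 genes grouped as NRF2 target enzymes were lower, under every scaling tried. Together they had 680 ± 134 CPM in the f/f-labelled libraries and 386 ± 26.7 CPM in the KspCre-labelled ones (SD, n = 3 each). Hmox1 encodes the inducible haem oxygenase, which opens the haem ring and is strong in macrophages that take up red cells as well as in injured tubules. It stood at 119, 64.8 and 127 CPM in the f/f-labelled libraries and at 29.5, 38.2 and 28.6 CPM in the KspCre-labelled ones (3.22-fold lower, log2 SE 0.26, edgeR adjusted p = 0.00249). The f/f-labelled replicate 2 was the lowest of its group, as it was for the summed macrophage markers (251, 171 and 525 CPM in replicates 1, 2 and 3) and the summed injury markers (1361, 478 and 2245 CPM). The share of either cell type in the Hmox1 difference was not tested.

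Nqo1, a quinone reductase used as a standard readout of NRF2, was spread widely inside the f/f-labelled group, at 239, 167 and 95.9 CPM. The KspCre-labelled libraries were at 82.6, 86.0 and 81.2 CPM, so that the lowest f/f-labelled library was close to them. Nqo1 was 2.01-fold lower (log2 SE 0.29, edgeR adjusted p = 0.0253). Its call was lost without f/f-labelled replicate 1 (adjusted p = 0.0758) or 2 (0.0502), without KspCre-labelled replicate 1, 2 or 3 (0.0789, 0.0755 and 0.0816), and with no filter on low counts (0.0739). Srxn1, which repairs overoxidized peroxiredoxins, was at 151, 119 and 107 CPM against 58.2, 75.5 and 63.9 CPM. This was a clear separation of 1.91-fold (log2 SE 0.16, edgeR adjusted p = 0.00338). Txnrd1, the cytosolic thioredoxin reductase, was at 323, 277 and 250.4 CPM against 192, 215 and 206 CPM, a smaller difference of 1.39-fold (edgeR adjusted p = 0.0271). Among fits with no replicate block, the Txnrd1 call was lost without f/f-labelled replicate 1 (adjusted p = 0.0854) and without KspCre-labelled replicate 1, 2 or 3 (0.126, 0.0828 and 0.107).

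**Figure D2:**
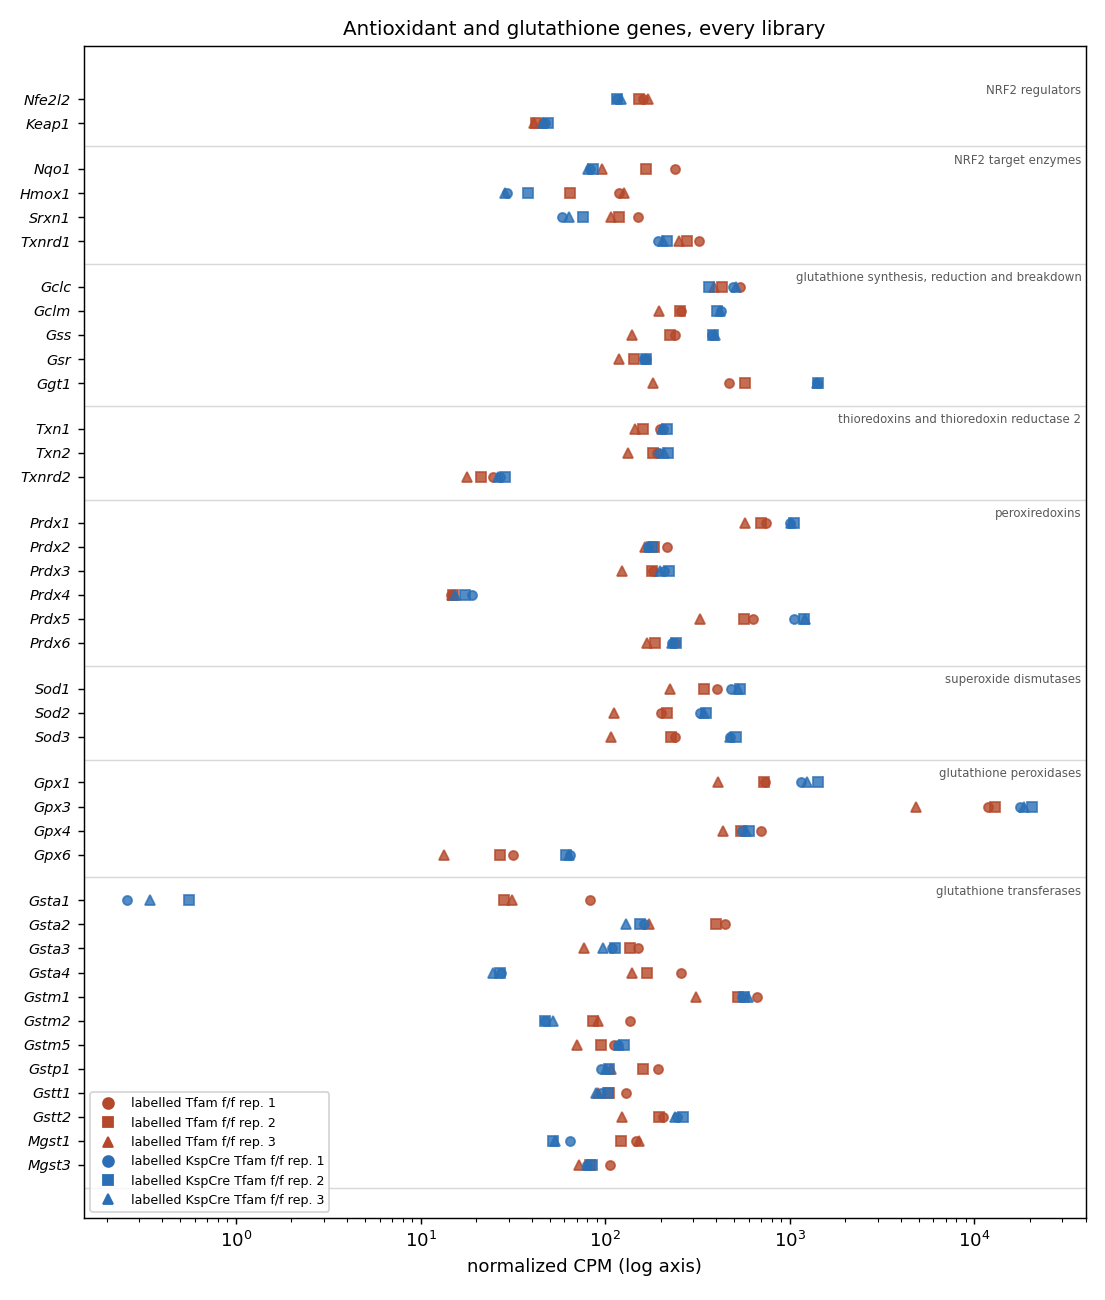
Level of each member in each library in normalized CPM on a log axis, with members grouped by role and one point per library. The KspCre-labelled libraries lie close together for most members, and the f/f-labelled libraries are spread more widely.

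Among genes that make, reduce and break down glutathione, those that passed went the other way from the genes grouped as NRF2 target enzymes. The list held 5 genes with a summed level of 1442 ± 363 CPM in the f/f-labelled libraries and 2834 ± 69.9 CPM in the KspCre-labelled ones (SD, n = 3 each). Of these Gclm, Gss and Ggt1 were higher under every scaling tried, and Gclc and Gsr did not pass and turned negative under scaling by total count alone. Gclc encodes the catalytic subunit of glutamate-cysteine ligase, the rate-limiting step, and Gclm its modifier subunit. Gclc stood at 539, 430.4 and 387 CPM against 495, 367 and 509 CPM. The libraries of both groups were interleaved (log2 fold change 0.014, SE 0.20, edgeR adjusted p = 0.96). Gclm stood at 259, 255 and 196 CPM against 423, 406 and 419 CPM, with no overlap (1.76-fold higher, log2 SE 0.15, edgeR adjusted p = 0.00531). The mRNAs of the ligase's subunits therefore differed in their relation to the labels, a difference that was not itself tested.

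Gss, glutathione synthetase, stood at 239, 225 and 140.3 CPM against 379.6, 386 and 395 CPM (1.92-fold higher, edgeR adjusted p = 0.0094). Gsr, glutathione reductase, which regenerates the reduced form with NADPH, stood at 119 to 167 CPM against 163 to 167 CPM (log2 fold change 0.21, edgeR adjusted p = 0.25). Ggt1 encodes gamma-glutamyl transferase, the brush-border enzyme that begins the breakdown of filtered glutathione. Ggt1 (chr10:75561604-75586200) stood at 469.98, 574 and 181 CPM in the f/f-labelled libraries and at 1399, 1429.9 and 1400.4 CPM in the KspCre-labelled ones. The KspCre-labelled libraries were nearly equal, and f/f-labelled replicate 3 was far below its own group. Ggt1 was 3.45-fold higher (log2 SE 0.39, edgeR adjusted p = 0.00907). The 16 proximal tubule markers, where Ggt1 is also known to be expressed, had a summed level 4.51-fold higher, beside the higher sums of the other tubule lists. Kap alone rose from a mean of 2712 to 26357 CPM in that sum. The median log2 fold change of the 16 markers was 1.66, and that of Ggt1 was 1.79. For the summed markers f/f-labelled replicate 3 was the lowest library as well (5580 CPM). The part of this in the Ggt1 value was not tested.

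**Figure D3:**
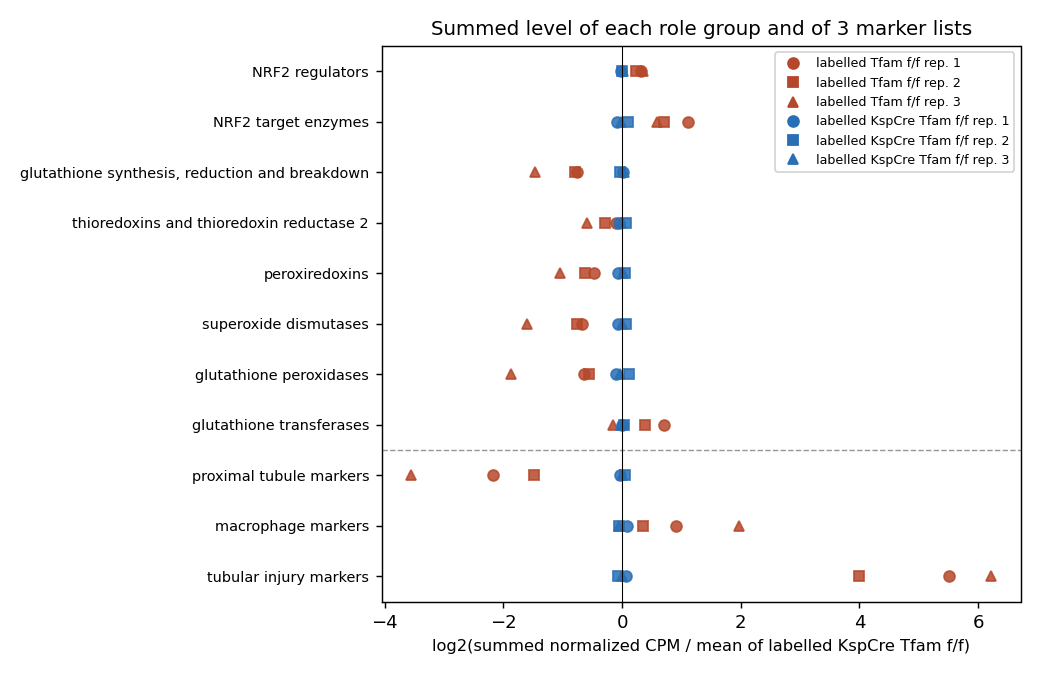
Summed level of each role group of members, and of the proximal tubule, macrophage and tubular injury marker lists, in each library on a log2 scale relative to the mean of the KspCre-labelled libraries. The NRF2 target enzymes lie above that mean in the f/f-labelled libraries, together with the macrophage and injury markers, and the synthesis, dismutase and peroxidase groups lie below it, together with the proximal tubule markers. The f/f-labelled points of the transferase group lie on both sides.

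None of the thioredoxins Txn1 and Txn2 and the mitochondrial thioredoxin reductase Txnrd2 passed the edgeR test. All 3 had groups that did not overlap, as did 61.9% of all tested genes. Without adjustment 1 of 3 had a p below 0.05, and DESeq2 called 0 of 3. Txnrd2 had the smallest p of the group, at 24.8, 21.4 and 17.9 CPM against 27.0, 28.5 and 26.2 CPM (log2 fold change 0.35, SE 0.13, edgeR adjusted p = 0.0589). Txn1 and Txn2, the cytosolic and the mitochondrial thioredoxin, each had a log2 fold change of 0.31 (edgeR adjusted p = 0.107 and 0.145). Without f/f-labelled replicate 1, Txn1 and Txnrd2 passed (adjusted p = 0.0359 and 0.0282), and under scaling by total count alone all 3 fold changes turned negative.

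Peroxiredoxins are thiol peroxidases that thioredoxin recharges. Of 6 peroxiredoxins, Prdx1 and Prdx5 were higher and the other 4 did not pass. Prdx5, found in mitochondria, peroxisomes and cytosol, stood at 634, 566 and 325 CPM against 1052, 1200.3 and 1206 CPM (2.27-fold higher, log2 SE 0.27, edgeR adjusted p = 0.0101). The lowest f/f-labelled library was again replicate 3. About 19.1% of the exonic length of Prdx5 lies under its opposite-strand neighbour Trmt112. With both strands searched, 8.27% of its 150-base windows occur in transcripts of that same neighbour, so this is not a separate limit. The overlap leaves the level of Prdx5 uncertain. Prdx1, the abundant cytosolic form, stood at 745, 698 and 569.9 CPM against 1005, 1049 and 1012 CPM (1.52-fold higher, edgeR adjusted p = 0.0266). Although its groups were well apart, the Prdx1 call was lost, among fits with no replicate block, without f/f-labelled replicate 1 (adjusted p = 0.0512), without KspCre-labelled replicate 1, 2 or 3 (0.0854, 0.0974 and 0.0881) and under scaling by total count alone (0.328). Among the rest, log2 fold changes were -0.11 for Prdx2, 0.37 for the mitochondrial Prdx3, 0.22 for the secretory-pathway Prdx4 and 0.23 for Prdx6. Those of Prdx3, Prdx4 and Prdx6 turned negative under scaling by total count alone.

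All 3 superoxide dismutases were higher, and their fold changes stayed positive under every scaling tried, although Sod1 did not pass under scaling by total count alone. They had 692 ± 217 CPM in sum in the f/f-labelled libraries and 1342 ± 59.5 CPM in the KspCre-labelled ones (SD, n = 3 each). Sod3, the secreted copper-zinc enzyme of the matrix and vessel wall, stood at 239, 229 and 108 CPM against 472, 511 and 476 CPM. This was the largest difference of the family (2.53-fold, log2 SE 0.29, edgeR adjusted p = 0.00843). Sod2, the manganese enzyme of the mitochondrial matrix, stood at 202, 218 and 111 CPM against 328, 354 and 343 CPM (1.93-fold, edgeR adjusted p = 0.0157). Its call was lost without KspCre-labelled replicate 2 or 3 (adjusted p = 0.0532 and 0.0505). Sod1, the cytosolic copper-zinc enzyme, stood at 402, 343 and 224 CPM against 481, 536 and 525 CPM (1.59-fold, edgeR adjusted p = 0.041). Among fits with no replicate block, its call was lost without f/f-labelled replicate 2 (adjusted p = 0.0539), without KspCre-labelled replicate 1, 2 or 3 (0.0867, 0.117 and 0.111) and under scaling by total count alone (0.272). For each dismutase the f/f-labelled replicate 3 was the lowest of the 6 libraries.

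Glutathione peroxidases reduce peroxides with glutathione. Gpx3, the secreted plasma form that the kidney supplies to the blood, dominated the members in every library. It made up 54.1%, 59.4% and 43.6% of the summed member CPM in the f/f-labelled libraries and 61.3%, 63.4% and 61.6% in the KspCre-labelled ones. Per kilobase of exon it was the most abundant member in both groups, at 5443 CPM per kilobase in the f/f-labelled and 10428 in the KspCre-labelled libraries, and Gpx1 was next at 432 and 886. Gpx3 stood at 11881, 12904 and 4819 CPM against 17691, 20524 and 18502 CPM. The groups did not overlap, but the difference did not pass (log2 fold change 0.94, SE 0.45, edgeR adjusted p = 0.119). The f/f-labelled replicate 3 was 2.68-fold below the highest library of its group. Without that library the log2 fold change was 0.61 and passed (adjusted p = 0.0152), and DESeq2 called it with all libraries (adjusted p = 0.0112).

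Gpx1, the widespread cytosolic form, stood at 735, 726 and 409 CPM against 1157, 1430.3 and 1241 CPM (2.05-fold higher, edgeR adjusted p = 0.0156). Its call was lost without KspCre-labelled replicate 2 or 3 (adjusted p = 0.0619 and 0.0501). Gpx6, a close relative of Gpx3, was much lower in level, at 31.7, 26.9 and 13.4 CPM against 64.9, 61.7 and 63.4 CPM (2.63-fold higher, log2 SE 0.28, edgeR adjusted p = 0.00652). Gpx4, the phospholipid hydroperoxide peroxidase that protects cells from ferroptosis, stood at 696, 542 and 437 CPM against 548, 603 and 582 CPM. Its groups overlapped (log2 fold change 0.049, SE 0.20, edgeR adjusted p = 0.856), and the value turned negative under scaling by total count alone (-0.37) and without f/f-labelled replicate 3 (-0.10).

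By location, 5 mitochondrial antioxidants (Txn2, Txnrd2, Prdx3, Prdx5 and Sod2) and 6 cytosolic counterparts (Txn1, Txnrd1, Prdx1, Prdx2, Prdx6 and Sod1) were set side by side. Of the mitochondrial genes Prdx5 and Sod2 were higher while 3 did not pass, at a median log2 fold change of 0.37. Of the cytosolic genes 2 were higher (Prdx1 and Sod1), Txnrd1 was lower and 3 did not pass, with a median of 0.27. The difference between these lists was not tested, and under scaling by total count alone Txn2, Txnrd2, Prdx3, Txn1 and Prdx6 turned negative.

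Glutathione transferases couple glutathione to electrophiles. Of 12 members, 6 were lower and 6 did not pass, and the lower ones kept their direction under every scaling tried. Gsta1 (chr9:78230656-78242684) had the largest fold of all members. It stood at 82.6, 28.5 and 31.2 CPM in the f/f-labelled libraries (2250, 1081 and 743 counts) and at 0.258, 0.555 and 0.343 CPM in the KspCre-labelled ones (11, 23 and 9 counts). It was thus low in all KspCre-labelled libraries and 121-fold lower (log2 fold change -6.91, SE 0.59, edgeR adjusted p = 0.000304). Without f/f-labelled replicate 1, the highest library, the log2 fold change was -6.23. Of its 150-base windows 68.4% occur in other transcripts, those of Gm3776, Gm10639 and Gsta2. Reads in them could not be assigned to 1 gene, so the level of Gsta1 is uncertain. Gm10639, a close copy, moved the same way, at 25.8, 16.5 and 10.8 CPM against 3.10, 3.77 and 3.77 CPM.

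Gsta4 (chr9:78182774-78209349), which conjugates the lipid peroxidation product hydroxynonenal, stood at 258, 168 and 139.5 CPM against 27.2, 27.1 and 24.6 CPM. The KspCre-labelled libraries were nearly equal and far below the other group (7.17-fold lower, log2 SE 0.23, edgeR adjusted p = 0.000204). Per kilobase of exon, Gsta4 ranked 9 among the members in the f/f-labelled libraries and 34 in the KspCre-labelled ones. Gsta2, the third alpha-class gene of the same stretch of chromosome 9, stood at 444, 399 and 174 CPM against 163, 154 and 129 CPM (2.28-fold lower, edgeR adjusted p = 0.0207). The lowest f/f-labelled library lay close to the KspCre-labelled ones. The Gsta2 call was lost without f/f-labelled replicate 1 or 2 (adjusted p = 0.0822 and 0.053), without KspCre-labelled replicate 1, 2 or 3 (0.0583, 0.0674 and 0.0808) and with no filter on low counts (0.0581). Gsta3, which lies apart on chromosome 1, did not pass (log2 fold change -0.19, edgeR adjusted p = 0.526). Its value was 0.007 without f/f-labelled replicate 1 and -0.44 without f/f-labelled replicate 3, where it passed (adjusted p = 0.00973).

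Mgst1, the microsomal transferase and peroxidase, stood at 148, 121 and 153 CPM against 64.3, 52.3 and 53.7 CPM (2.48-fold lower, log2 SE 0.13, edgeR adjusted p = 0.000496). Gstm2 stood at 136, 86.3 and 91.6 CPM against 47.2, 47.1 and 52.5 CPM (2.14-fold lower, log2 SE 0.18, edgeR adjusted p = 0.00284). Its mu-class neighbours on chromosome 3, Gstm1 and Gstm5, had log2 fold changes of 0.19 and 0.39 (edgeR adjusted p = 0.585 and 0.087), which turned negative under scaling by total count alone. Gstm1 was abundant, at 311 to 665 CPM against 551 to 593 CPM, and its groups overlapped. Gstp1, the pi-class enzyme, stood at 192, 160.5 and 107 CPM against 95.0, 105 and 101 CPM (1.53-fold lower, edgeR adjusted p = 0.0378). The Gstp1 call was lost without f/f-labelled replicate 1 or 2 (adjusted p = 0.135 and 0.0872), without KspCre-labelled replicate 1, 2 or 3 (0.125, 0.0943 and 0.112) and with limma voom (0.0551). The theta-class Gstt1 and Gstt2 and the microsomal Mgst3 had log2 fold changes of -0.17, 0.51 and -0.10 and did not pass (edgeR adjusted p = 0.344, 0.0646 and 0.585). Some fits called transferases as higher: Gstt2 without f/f-labelled replicate 3 (adjusted p = 0.0274), with DESeq2 (0.0328) and with no filter on low counts (0.047), and Gstm5 without f/f-labelled replicate 1 (0.0404).

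**Figure D4:**
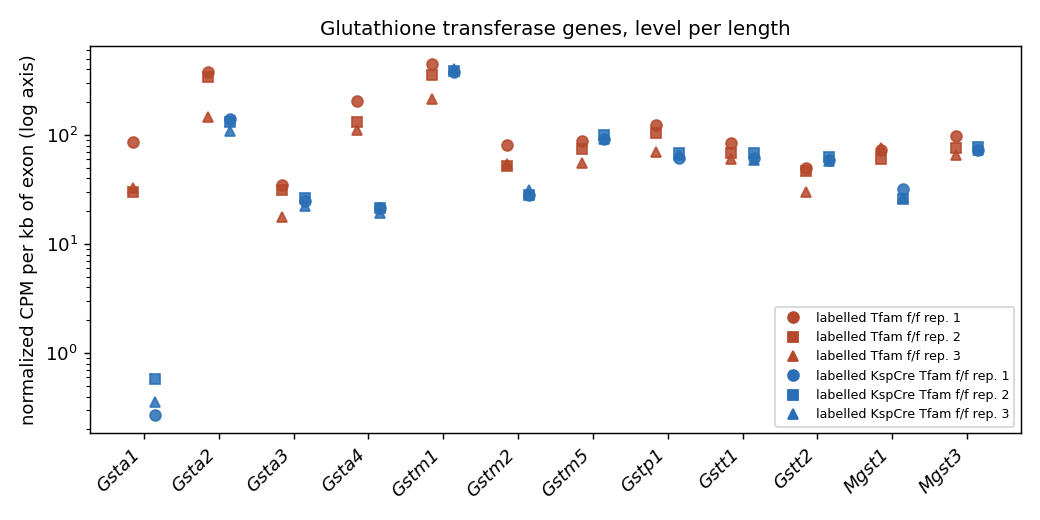
Level of the 12 glutathione transferase members in CPM per kilobase of exon on a log axis, with one point per library. The mean of Gsta1 is 49.6 CPM per kilobase in the f/f-labelled and 0.403 in the KspCre-labelled libraries, that of Gsta4 is 149 and 20.8, and that of Gstm1 is 339 and 386.

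Counting leaves some further members uncertain. Of the 150-base windows of Gsta2, Gstp1, Gpx4 and Sod2, 19.6%, 17.6%, 17.4% and 7.9% occur in other transcripts, such as the copies Gstp2 and Gpx4-ps2. Exons of another gene cover 15.4% of the exonic length of Gss, 13.9% of Gstm5 and 11.5% of Prdx2.

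The f/f-labelled libraries differed more among themselves than the KspCre-labelled ones. The ratio of the highest to the lowest library of a group had a median over the members of 1.58 in the f/f-labelled and 1.10 in the KspCre-labelled libraries. For all 10 higher members, f/f-labelled replicate 3 was the f/f-labelled library farthest from the KspCre-labelled group. For 8 of the 11 lower members, replicate 1 was the farthest, and for the other 3 it was replicate 3. Without replicate 3 of the f/f-labelled libraries 12 members were higher and 12 lower, beside 3613 and 4023 of 17740 tested genes. All 21 called members kept their direction in each of the 14 alternatives, and 12 of them also kept their call in each.

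The other genes of the pathway, 123 in lists drawn up by role, of which 116 were tested, gave 39 higher and 34 lower. Across all tested genes 21.3% were higher and 24.9% lower, which also stands beside each list below. Of all genes 1680 were higher and 8512 lower under scaling by total count alone. Under that scaling 20 of the related genes were higher and 54 lower. The higher count was 24 without f/f-labelled replicate 1 and 22, 19 and 19 without KspCre-labelled replicates 1, 2 and 3. In the same order, these fits called 2855, 2321, 2276 and 2299 of all genes higher. Among 11 partners and competitors of NRF2, Maff, Nfe2l1, Nfe2l3 and Sqstm1 were lower and Bach1, Bach2 and Cul3 were higher. Maff, a small MAF protein, was 4.49-fold lower and Nfe2l1, the related factor for proteasome genes, was 1.76-fold lower. Nfe2l3 was 8.58-fold lower from 4.11 ± 2.1 to 0.473 ± 0.22 CPM (SD, n = 3 each). Bach2, which competes for the same elements, was 2.14-fold higher, at 9.07 ± 1.56 against 4.21 ± 0.779 CPM (SD, n = 3 each).

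Of 25 further NRF2 target genes, 10 were lower and 5 were higher (Blvra, Abcg2, Osgin1, Nqo2 and Abcc2). The shares over all tested genes were 24.9% lower and 21.3% higher. Slc7a11, the cystine importer that limits cysteine for glutathione, stood at 30.2, 28.8 and 31.2 CPM against 0.164, 0.072 and 0.419 CPM. It had 3 to 11 counts in each KspCre-labelled library (152-fold lower, edgeR adjusted p = 3.3e-05), with a log2 fold change of -7.25, or -7.93 without KspCre-labelled replicate 3. Akr1b8, an aldo-keto reductase, was 30.8-fold lower (edgeR adjusted p = 2.28e-05), Abcc4, an efflux pump of organic anions, was 6.08-fold lower, and Abcc1, which exports glutathione conjugates, was 2.8-fold lower. Abcc2, its apical relative in the proximal tubule, was 2.12-fold higher.

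NADPH, the reductant behind Gsr and the thioredoxin reductases, comes from several enzymes. Of 14 such genes, 5 were higher and 6 lower, beside 21.3% and 24.9% of all tested genes. The pentose phosphate enzymes G6pdx and Pgd were 2.15-fold and 1.96-fold lower, and Pgls and Tkt were lower as well. Malic enzyme Me1 was 4.15-fold higher (190 ± 77.3 against 787 ± 13.3 CPM), Me2 2.36-fold lower and Me3 1.21-fold lower. The remaining higher genes were Nadk, Nadk2, Mthfd1 and Nnt. Of 13 other glutathione transferases tested, Gsto1, Gstp3, Hpgds and Gstm6 were lower, by 6.19, 6.84, 3.98 and 2.44-fold, and Gstz1 and Gstp2 were higher.

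Among 16 other genes of glutathione turnover, 9 were higher and 1 was lower, beside 21.3% and 24.9% of all tested genes. The lower one, Chac1, encodes an enzyme that cleaves glutathione inside the cell and is a known target of the integrated stress response, and it was 28-fold lower (14.4 ± 2.64 against 0.528 ± 0.179 CPM, SD, n = 3 each). Higher genes included Anpep, which cleaves cysteinylglycine at the brush border (3.05-fold), Cbs of the transsulfuration pathway (2.89-fold) and Ggct, which releases oxoproline (2.57-fold). Among 21 other thiol and peroxide enzymes, 10 were higher and 3 lower (Sesn2, Sesn3 and Glrx3). Selenop, the plasma selenium carrier, was 4.38-fold higher, Msrb1 2.18-fold higher and Sesn2 1.83-fold lower. Among the sources of superoxide and peroxide, Dao, Duox1, Nox4 and Cyba were higher and Cybb, Ncf1, Ncf4, Rac2, Xdh and Maoa were lower. Cybb, Ncf1, Ncf4, Rac2 and Cyba all encode parts of the phagocyte oxidase. The first 4 were lower, as the macrophage markers were, and Cyba was higher (2-fold, edgeR adjusted p = 0.00259). The part of the macrophage markers in these values was not tested.

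**Figure D5:**
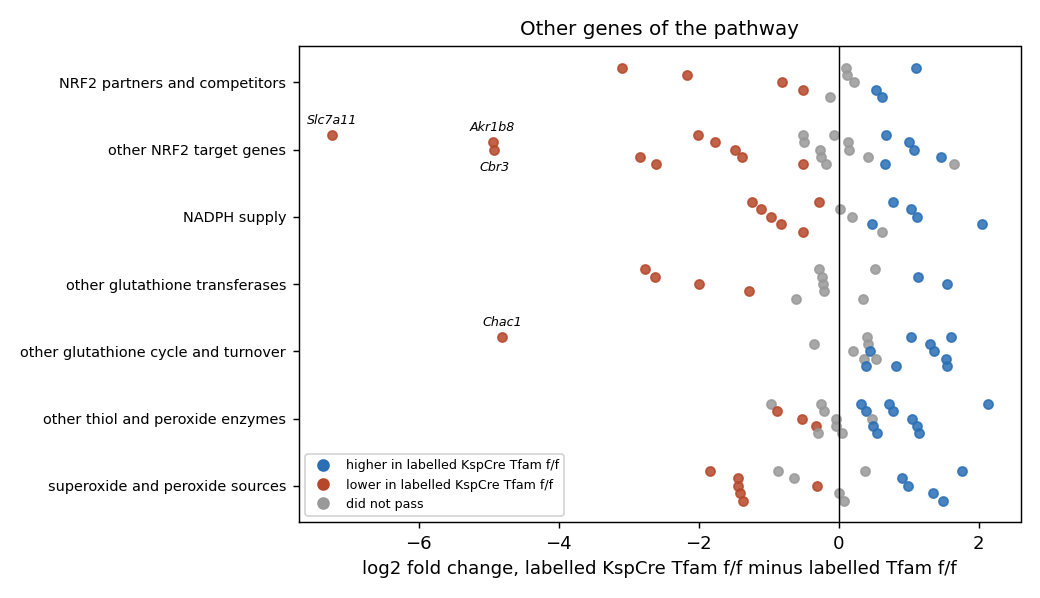
Log2 fold change, KspCre-labelled minus f/f-labelled with TMM scaling, of the 116 tested further genes of the pathway in their 7 lists, one point per gene, coloured by call. Slc7a11, Akr1b8, Cbr3 and Chac1 stand farthest to the left, and calls on both sides of 0 occur in every list.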

How the data were processed

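Whole-kidney RNA of the 6 libraries was selected for poly A+ transcripts and sequenced strand-specifically with dUTP, per the labels' protocols. The authors deposited raw counts per gene. The submitters' processing notes name STAR 2.4.1d, HTSeq 0.11.0, Trim Galore, FastQC and build mm10. Settings, annotation and counting strand: not given in the sources used here. The deposited count files hold 5 summary lines, 16.0% to 20.4% of the total, which were left out. Positions come from GENCODE M21, promoters from RefSeq (GRCm38.p6), where 32 of 39 members matched.

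Counts were tested in edgeR 4.0.16 (R 4.3.3): filterByExpr (minimum count 10, total 15), TMM factors, quasi-likelihood test, Benjamini-Hochberg adjustment over 17308 genes, called below 0.05. CPM values use the same factors. A fold change is KspCre-labelled over f/f-labelled, and its standard error (SE) was derived from the F statistic. The design was fitted without a replicate block. Alternatives were 3 other scalings, 2 other filters, DESeq2 1.42.0, limma voom 3.58.1, the replicate block and each library left out. The procedure was tested on simulated counts. It recovered 6 of 67 genes changed 1.5-fold, 44 of 67 changed 2-fold and 57 of 66 changed 4-fold, with 7 false calls. Only these genes were changed among 17308, whereas 46.2% of tested genes were called in the data. The adjustment was therefore stricter in the simulation, and these rates do not give the power of the comparison here. A member that did not pass may still differ between the labels.

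The members and lists were chosen with earlier results of these data known. Named are all 39 members, with values per library for Nfe2l2, Keap1, called members of at least 2-fold and the smallest p of each role group, and up to 4 called genes with the smallest p of each further list. Other genes that stand beside a count of 5 or fewer were named after their values were seen. One gene of a further list is not reported here. No pair of libraries agreed within sampling noise, so none was taken as a duplicate. Windows of 150 bases shared with other transcripts, and exons under another gene, were counted per member.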

Additional observations from a re-analysis of the deposited data

How the results depend on the processing

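Of the 21 called members, 12 kept their call in all 14 alternatives: Hmox1, Srxn1, Gclm, Gss, Ggt1, Prdx5, Sod3, Gpx6, Gsta1, Gsta4, Gstm2 and Mgst1. Scaling by total count alone gave 20 higher and 54 lower related genes and 1680 higher and 8512 lower genes in all. With each library left out, members higher ranged from 6 to 12 and lower from 6 to 12. Related genes ranged from 19 to 42 higher and 26 to 38 lower, and all genes from 2276 to 4652 higher and 2822 to 4942 lower. The cause of these changes was not tested, and each fit with a library left out also had fewer libraries.

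Fold changes that turned did so for members that were not called. Under total count scaling the log2 values were -0.284 for Keap1 (which then passed, adjusted p = 0.0368), -0.407 for Gclc, -0.212 for Gsr, -0.112 for Txn1, -0.110 for Txn2, -0.0729 for Txnrd2, -0.0464 for Prdx3, -0.202 for Prdx4, -0.191 for Prdx6, -0.371 for Gpx4, -0.222 for Gstm1 and -0.0328 for Gstm5. Gclc was -0.00768 with a stricter filter, -0.0894 without f/f-labelled replicate 3, and -0.0380 and -0.0592 without KspCre-labelled replicates 1 and 3 (library-left-out range -0.0894 to 0.175). Without f/f-labelled replicate 3, Gpx4 was -0.103 (range to 0.252) and Gstm1 -0.0641 (range to 0.46). Without f/f-labelled replicate 1, Prdx2 was 0.0154 (range from -0.196), Gsta3 0.00698 (range from -0.436) and Mgst3 0.0817 (range from -0.222).

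Deviations of same-numbered libraries from their group means correlated at -0.174, -0.0702 and -0.0708. Those of differently numbered libraries correlated at -0.0619 to 0.194. With so few libraries per group, whose deviations depend on each other, these values cannot decide whether the replicate numbers pair the libraries. With the replicate number as a block, 8 members were higher and 10 lower, related genes were 37 and 29, and all genes 3227 and 3586. The members that lost their call under the block were Txnrd1, Prdx1 and Sod1 (adjusted p = 0.0767, 0.077 and 0.0506). Depth limits Gsta1, with 9 to 23 counts in the KspCre-labelled libraries.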

Other observations

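Further genes of the pathway add detail to both sides of the comparison. Among the NRF2 target genes, the carbonyl reductases Cbr1 and Cbr3 were 4.03-fold and 30.3-fold lower in the KspCre-labelled libraries, Cbr3 from 24.1 ± 12.4 to 0.77 ± 0.411 CPM (SD, n = 3 each). The epoxide hydrolase Ephx1 was 3.41-fold lower (edgeR adjusted p = 0.000239) and the basolateral efflux pump Abcc3 was 7.16-fold lower. Higher genes outside that list included enzymes of glutathione hydrolysis and detoxication by glyoxalase. Lap3 was 2.48-fold and Dpep1 2.93-fold higher, and the glyoxalase genes Glo1 and Hagh were 1.37-fold and 1.77-fold higher. Cat, the peroxisomal catalase, was 2.06-fold higher at 1521 ± 20.7 against 738 ± 327 CPM (SD, n = 3 each, edgeR adjusted p = 0.0415). Ccs, which encodes a copper chaperone, was 1.64-fold higher. These genes were named after their values were seen.

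Nnt, the mitochondrial transhydrogenase that makes NADPH, had 0.404 to 1.91 CPM in the 6 libraries, the lowest range among the genes of NADPH supply. It was called higher in the KspCre-labelled libraries (2.16-fold, edgeR adjusted p = 0.0319), a difference between means of 0.762 and 1.67 CPM.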
